A study of Rattus norvegicus with 3 samples.

Results

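Nuclear genes for subunits of the mitochondrial respiratory chain and of ATP synthase were followed across the cell clusters of rat mandibular condyles. Members were chosen by their names alone. A name was taken when it began with Nduf, a letter a, b, c, s or v and a digit, with Uqcr, with Cox, a digit from 4 to 8 and a letter, or with Atp5. This gave 79 of the 20896 gene names in 3 libraries, with 37 names for complex I, 8 for complex III, 17 for complex IV and 17 for complex V, the ATP synthase. Some names of the list are not subunits by function: Atp5if1 is an inhibitor of ATP synthase, Cox7a2l helps to join complexes III and IV, and Cox6c-ps1 is a pseudogene. Ndufa4 and its isoform Ndufa4l2 were counted under complex I by name, although the Ndufa4 protein is now placed in complex IV.

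Single-cell RNA was prepared from the condyles, cartilage with subchondral bone, of SD rats that had received an AAV injection and are labelled wild type. The sham library came from rats with the vector AAV and no crossbite. The UAC library came from rats with the vector AAV and unilateral anterior crossbite, an altered bite that loads the joint abnormally. The UAC + miR-330 library came from rats with the same crossbite and an AAV for the microRNA miR-330. By the authors' account, crossbite rats that received an AAV were kept for 8 weeks. Each library pooled 16 condyles of 8 rats, so each group had 1 library, rats within a pool could not be told apart, and the age of the rats is not given in the sources used. With 1 library per group no p-value was computed, and the exact 95% intervals below, Poisson for levels and binomial for shares, cover counting error only. The 2 comparisons, of UAC with sham and of UAC + miR-330 with UAC, share the UAC library and are given side by side. Differences between groups cannot be told apart from differences between the 3 libraries.

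Sets of 3 values follow the order sham, UAC, UAC + miR-330. Depth was 77668015, 92629658 and 97255383 UMIs (counted molecules), in 15, 18 and 19 clusters. Levels are CPM, the UMIs of a gene scaled to all UMIs of its cluster or library. The tags come from the 3′ end of transcripts, 1 count per molecule, so levels were not divided by length; capture can differ between genes, and levels of different genes are compared under that limit. The list took 1238885, 1229262 and 1136741 UMIs, which was 1.60%, 1.33% and 1.17% of each library.

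Complex I takes electrons from NADH, complex III passes them from ubiquinol to cytochrome c, complex IV hands them to oxygen, and complex V uses the resulting proton gradient to make ATP. Most subunits are coded in the nucleus, while a core of complexes I, III, IV and V is coded in mitochondrial DNA. Cartilage has no blood vessels and little oxygen, chondrocytes draw much of their ATP from glycolysis, and Cox4i2 and Ndufa4l2 are known as isoform genes induced at low oxygen.

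Clusters were named from 204 markers of 18 cell types, of which 190 were found by name, and 50 of the 52 clusters received a name. Each library had 1 chondrocyte-like cluster, with 11.6%, 6.46% and 6.05% of UMIs, in which 15, 16 and 17 of 20 chondrocyte markers reached 50 CPM. Chondrocyte markers summed to 63477, 50528 and 65629 CPM there, with Col2a1, the main collagen of cartilage, at 27180, 19379 and 24344 CPM, and Matn1 was at 0 in the UAC and UAC + miR-330 libraries. The cluster also held bone and fibroblast transcripts. Osteogenic markers summed to 12812, 12519 and 11822 CPM, with Bglap (osteocalcin) the most abundant, and fibroblast markers to 67907, 56882 and 56846 CPM, with Col1a1 the most abundant. The name rests on the number of enriched markers, so the cluster is not described as chondrocytes alone.

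Blood-cell and vessel markers in the chondrocyte-like cluster differed between the libraries. Neutrophil markers summed to 1250, 4388 and 868 CPM, early granulocyte markers to 32.6, 827 and 61.7 CPM, and skeletal muscle markers to 133, 33.4 and 91.4 CPM. Endothelial markers summed to 76.1, 8.70 and 7.65 CPM, and Cdh5, Kdr, Tek and Emcn were at 0 UMIs in this cluster of the UAC and UAC + miR-330 libraries. Mural markers summed to 389, 408 and 431 CPM, of which Cspg4, a gene that cartilage also uses, gave 348, 324 and 377 CPM. Pdgfrb was at 20.1, 34.8 and 24.3 CPM, with 181 of 186, 208 of 217 and 143 of 148 of its UMIs in this cluster, and Tagln at 15.3, 41.1 and 22.3 CPM, with 138 of 155, 246 of 276 and 131 of 172. The pericyte gene Rgs5 had 6, 6 and 5 UMIs in a whole library, too few to place. The part of these other cells in the results below was not tested.

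The other classes described are 1 macrophage-marker cluster per library (4.36%, 6.33% and 6.16% of UMIs), the neutrophil clusters (2, 3 and 3 clusters with 10.0%, 12.3% and 10.6%) and the clusters named early or mature B (4, 6 and 5 clusters with 23.5%, 28.3% and 31.2%). In the macrophage-marker cluster macrophage markers summed to 3099, 1799 and 1913 CPM and neutrophil markers to 6418, 6217 and 4127 CPM, so it is called by its markers only. Erythroid markers in it summed to 1200, 84.0 and 99.1 CPM, mast cell or basophil markers to 379, 8.01 and 10.4 CPM and early granulocyte markers to 654, 83.3 and 120 CPM, and their part was not tested. Clusters were made from the same cells and genes, so differences between clusters are described and not tested.

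Measured at the depth of a whole library, 73 of the 79 members had at least 50 UMIs in every library: 35 of complex I, 8 of complex III, 13 of complex IV and 17 of complex V. The 6 others were below 50 UMIs in every library, and for them low expression cannot be told apart from low capture of the transcript. Ndufa1, a small complex I subunit, had 4, 5 and 4 UMIs, and Ndufs6, a complex I subunit of the peripheral arm, had 25, 28 and 16. The heart and muscle isoforms of complex IV were also scarce, with 14, 15 and 10 UMIs for Cox6a2, 39, 22 and 20 for Cox7a1 and 0, 0 and 2 for Cox8b. The pseudogene Cox6c-ps1 had 0, 0 and 1 UMIs. A count of 0 allows up to 3 UMIs, or 0.0386, 0.0324 and 0.0308 CPM in the 3 libraries. Genes with near-identical copies elsewhere in the genome are uncertain in such counts, and 3 member names (Cox6b1, Uqcrb and Ndufv3) stood on 2 identifiers that were summed.

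Over the whole library the median member was at 171 CPM in sham, 135 CPM in UAC and 118 CPM in UAC + miR-330. By complex the medians were 108, 88.6 and 80.3 CPM for complex I, 225, 194 and 157 CPM for complex III, 346, 319 and 263 CPM for complex IV, and 277, 209 and 196 CPM for complex V. Complex I had the lowest median and complex IV the highest in each library.

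By UMIs summed over the libraries Ndufa4 led complex I, at 441, 335 and 285 CPM. Ndufb11 and Ndufb8, both accessory subunits of the membrane arm, followed at 212, 178 and 161 CPM and at 208, 174 and 158 CPM. All 3 genes were lower in UAC than in sham (log2 difference −0.39, −0.25 and −0.26). Against UAC the UAC + miR-330 library gave −0.24, −0.15 and −0.14, but on the scale of the deposited mean counts, described with the group comparisons below, Ndufb11 and Ndufb8 were higher there and Ndufa4 was level. Ndufs1, a core subunit that holds iron-sulphur clusters, was less abundant, at 24.7, 24.1 and 28.7 CPM.

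Complex III was led by Uqcrh, the hinge protein that binds cytochrome c1, at 455, 401 and 318 CPM. Uqcrq and Uqcr10, small membrane subunits, were at 259, 208 and 182 CPM and at 247, 200 and 175 CPM. UAC against sham gave −0.18 for Uqcrh, a sign that turned on the deposited scale, and −0.31 and −0.30 for Uqcrq and Uqcr10, which stayed below 0 on it. Uqcrh was lower in UAC + miR-330 than in UAC (−0.33) on both scales, while −0.20 for Uqcrq and −0.19 for Uqcr10 turned above 0 on the deposited scale. The core proteins Uqcrc1 and Uqcrc2 had the lowest levels of the complex, at 111, 98.5 and 83.5 CPM and at 145, 135 and 118 CPM.

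Complex IV genes were abundant. Cox4i1, the general isoform of subunit 4, was at 595, 550 and 485 CPM, Cox7c at 567, 479 and 417 CPM and Cox6c at 547, 472 and 389 CPM. Cox7c and Cox6c were lower in UAC than in sham (−0.24 and −0.21), and Cox6c was lower again in UAC + miR-330 than in UAC (−0.28). The differences of Cox4i1 (−0.11 and −0.18) and that of Cox7c between UAC + miR-330 and UAC (−0.20) had the opposite sign on the deposited scale.

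Atp5f1e, the small epsilon subunit of the ATP synthase stalk, had the highest level of the list in the sham and UAC libraries, at 680, 555 and 456 CPM. Atp5mc2, one of the genes for the c subunit of the proton-driven ring, was at 656, 551 and 451 CPM, and Atp5mg, a subunit of the membrane part, at 384, 339 and 285 CPM. Atp5f1e and Atp5mc2 were lower in each comparison on both scales, with −0.29 and −0.28 for Atp5f1e and −0.25 and −0.29 for Atp5mc2. Atp5mg gave −0.18 for UAC against sham, which turned above 0 on the deposited scale, and −0.25 for UAC + miR-330 against UAC. The other c subunit genes were lower in level, with Atp5mc1 at 181, 149 and 141 CPM and Atp5mc3 at 171, 140 and 119 CPM, although all of these genes code for the same mature protein. Atp5pb, a subunit of the peripheral stalk, had the lowest level of complex V at 6.09, 6.60 and 7.51 CPM. Whether so low a level reflects expression or capture was not tested.

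Across clusters the median member ranged from 57.1 to 244 CPM in sham, from 49.7 to 211 CPM in UAC and from 49.6 to 185 CPM in UAC + miR-330. The chondrocyte-like cluster came the second in each library, at 198, 182 and 177 CPM, and kept that place under both other cluster totals tried. Above it stood an unnamed cluster of the sham library and an erythroid cluster of each other library. The lowest cluster was a neutrophil cluster in every library, but without the 50 most abundant genes in the totals an early B cluster was lower still in each.

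**Figure D1:**
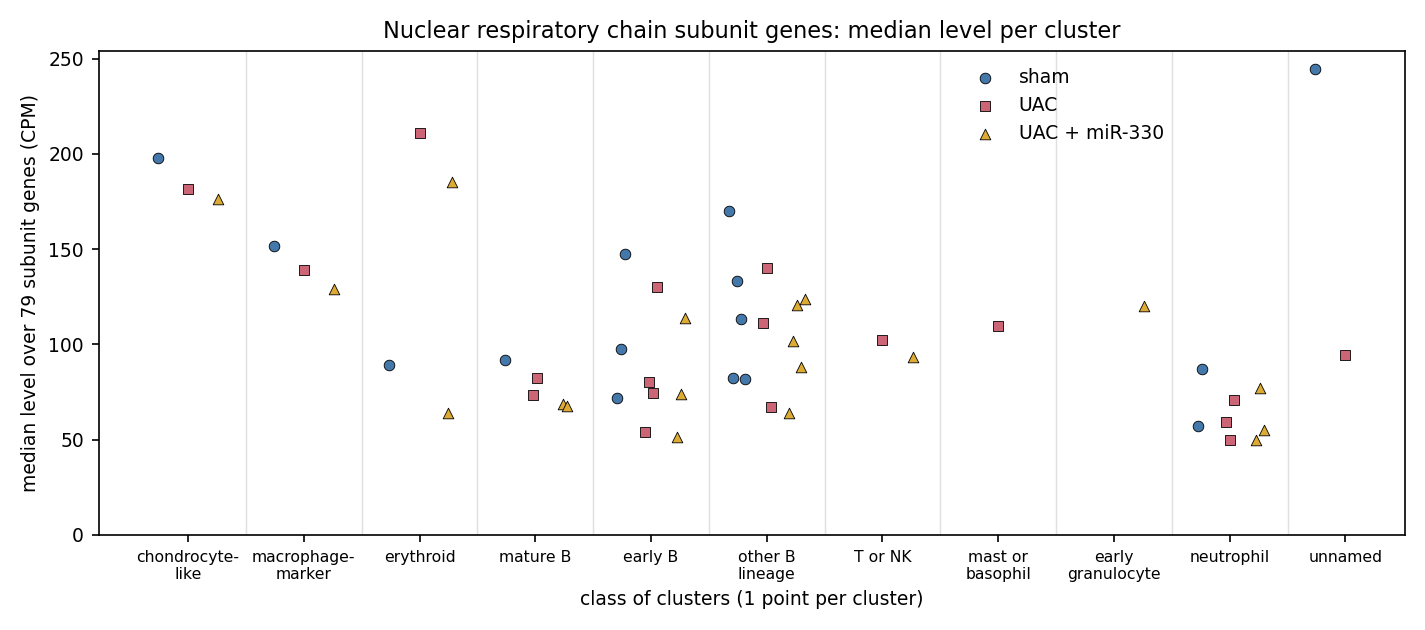
Median level of the 79 subunit genes (CPM, vertical axis) in each cluster, grouped by class of clusters (horizontal axis), with 1 point per cluster and a colour and shape per library. Chondrocyte-like clusters sit at 198, 182 and 177 CPM and the lowest neutrophil clusters at 57.1, 49.7 and 49.6 CPM; with totals that leave out the 50 most abundant genes an early B cluster is the lowest instead.

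The chondrocyte-like median was above the neutrophil median in each library, and the summed neutrophil clusters had medians of 76.1, 64.6 and 70.4 CPM. Not every single gene followed the medians. The ratio of the medians was 2.59, 2.82 and 2.51, and it was 1.73, 1.88 and 1.81 without the 50 most abundant genes in the totals. The macrophage-marker cluster lay between them at 152, 139 and 129 CPM, and the B clusters at 99.97, 77.4 and 71.4 CPM. By complex the neutrophil medians were 58.6, 48.6 and 46.6 CPM for complex I, 130, 120 and 110 CPM for complex III, 176, 153 and 152 CPM for complex IV and 91.9, 71.1 and 71.2 CPM for complex V.

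Among the 4 classes the complexes did not keep the same order. Complex IV had the highest median in each class, at 287, 286 and 279 CPM in the chondrocyte-like cluster and 320, 297 and 273 CPM in the macrophage-marker cluster. The complex III median was above that of complex V in the chondrocyte-like cluster of sham and UAC (260 and 255 CPM against 227 and 241 CPM), and below it in that of UAC + miR-330 (216 against 227 CPM). In the macrophage-marker cluster complex V was the higher in each library (291, 251 and 241 CPM against 250, 211 and 203 CPM). Complex I stayed lowest, at 121, 117 and 112 CPM in the chondrocyte-like cluster and 108, 90.3 and 90.0 CPM in the macrophage-marker cluster.

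Single genes peaked in different classes. Macrophage-marker clusters held the highest Cox4i1, at 1045, 1043 and 952 CPM, and Cox5a, a matrix-side subunit of complex IV, was at 707, 684 and 623 CPM there against 198, 184 and 176 CPM in the chondrocyte-like cluster. Uqcr10 reached 460, 388 and 399 CPM in the chondrocyte-like cluster, its highest cluster in each library, against 188, 166 and 159 CPM in neutrophils and 134, 110 and 87.9 CPM in B clusters. Atp5f1e was also highest in the chondrocyte-like cluster of each library, at 1011, 848 and 802 CPM. Ndufa4 and Atp5mc2 were instead highest in the unnamed sham cluster and in the erythroid clusters that led the medians.

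The balance of ATP synthase to complex IV transcripts was low in neutrophils. This ratio of summed UMIs does not depend on any scaling, and Cox4i2 was left out of it. It was between 0.646 and 0.672 in the neutrophil clusters of sham, between 0.610 and 0.666 in those of UAC and between 0.624 and 0.664 in those of UAC + miR-330. Other sham clusters lay between 0.867 and 1.26. An unnamed UAC cluster (0.638) and the early granulocyte cluster of UAC + miR-330 (0.654) were in the neutrophil range. B clusters lay at 0.966 to 1.09, 0.963 to 1.17 and 0.995 to 1.15, the macrophage-marker cluster at 0.952, 0.917 and 0.922, and the chondrocyte-like cluster at 1.26, 1.19 and 1.21, the highest in each library, but with Cox4i2 counted it was at 0.886, 0.899 and 0.910, below the B clusters and the macrophage-marker cluster (0.951, 0.917 and 0.922). Ndufa4 and Ndufa4l2 were also left out of complex IV here. With Ndufa4 counted there the chondrocyte-like ratio was 1.20, 1.14 and 1.16, with Ndufa4l2 as well it was 0.799, 0.818 and 0.844, and with Cox4i2 in addition it was 0.631, 0.669 and 0.686. By this last count the neutrophil clusters lay at 0.602 to 0.636, 0.575 to 0.638 and 0.595 to 0.641, so the place of the chondrocyte-like cluster rests on the isoform genes counted.

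**Figure D2:**
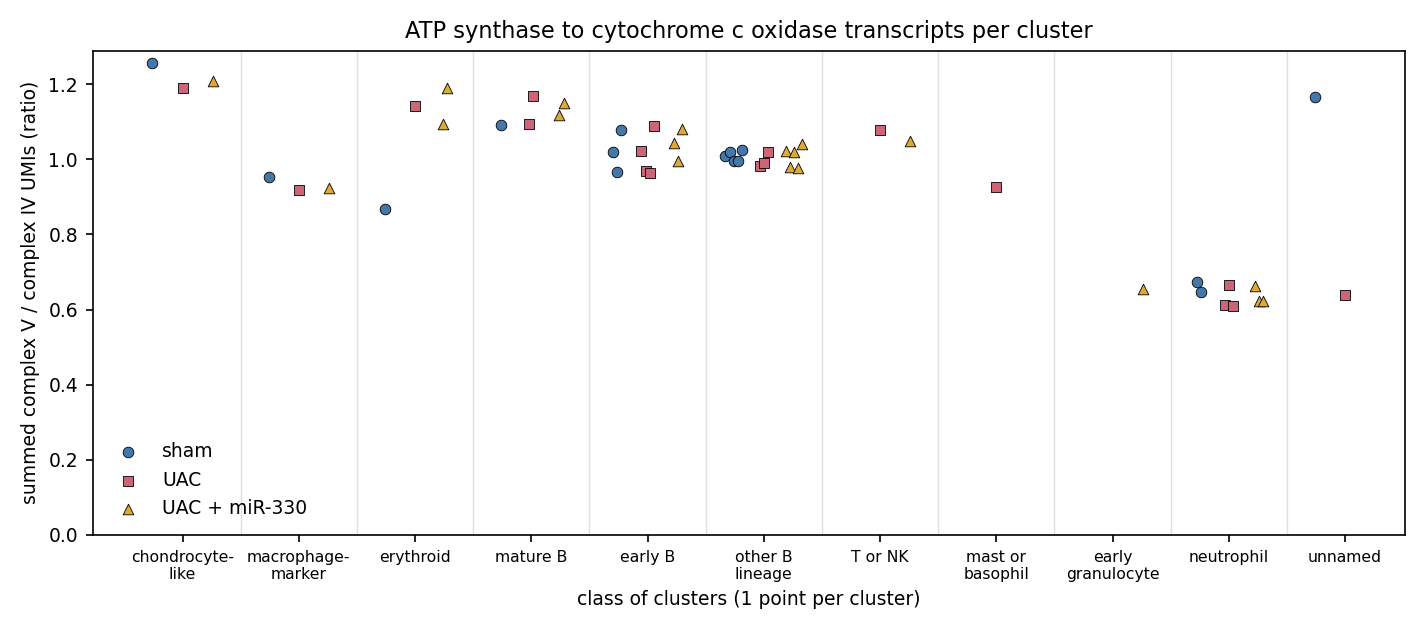
Ratio of summed complex V to summed complex IV UMIs (vertical axis, no unit) in each cluster, by class of clusters (horizontal axis), with 1 point per cluster and a colour and shape per library. Neutrophil clusters of sham lie between 0.646 and 0.672, while the chondrocyte-like clusters lie at 1.26, 1.19 and 1.21; Cox4i2, Ndufa4 and Ndufa4l2 were left out of complex IV, and with all 3 the latter are 0.631, 0.669 and 0.686.

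Summed over clusters, the ratio of neutrophils was 0.625, 0.594 and 0.594 times that of the B clusters. This comparison was chosen after the values were seen. The median complex V gene was lower in neutrophils than in B clusters, with a log2 difference of −1.01, −1.0 and −0.56 over 17 genes. By all UMIs 13 of the 17 were lower and 4 higher in each library, Atp5pf among the latter (0.56, 0.71 and 1.02). The complex V median stayed below 0 without the 50 most abundant genes (−0.36, −0.36 and −0.02). Complex IV gave −0.06, −0.06 and 0.18 over 13 genes, and was above 0 in each library without the 50 most abundant genes (0.59, 0.58 and 0.73). Medians of complex I (−0.43, −0.46 and −0.19 over 35 genes) and complex III (−0.46, −0.41 and −0.14 over 8) changed sign under that total (0.22, 0.18 and 0.35, and 0.18, 0.22 and 0.41). That total moved every gene by 0.65, 0.64 and 0.54, so the higher or lower level of neutrophils over all 73 genes depends on the total used. By all UMIs 54, 50 and 46 were lower, and without the 50 genes 45, 44 and 45 were higher. No share over all genes is given for this comparison, so these counts are not read as a difference from other genes. Leaving out haemoglobin, mitochondrial, ribosomal protein and immunoglobulin genes instead moved every gene by −0.23, −0.22 and −0.17.

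Among the genes farthest apart, again picked after their values were seen, were genes of the catalytic head and the ring of ATP synthase. Atp5f1a, the alpha subunit of the head, was at 44.3, 36.1 and 42.6 CPM in neutrophils and 242, 201 and 188 CPM in B clusters (−2.45, −2.47 and −2.14). Atp5mc2 was at 149, 113 and 99.8 CPM against 560, 509 and 381 CPM (−1.91, −2.17 and −1.93). Both genes were lower in neutrophils under each total tried.

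By all UMIs 19, 23 and 27 of the 73 members were higher in neutrophils than in B clusters, and 4 of them are given here. These counts too have no share over all genes beside them and describe the list alone. Ndufb9, an accessory subunit of complex I, was at 244, 279 and 245 CPM against 90.5, 75.4 and 65.6 CPM (1.43, 1.89 and 1.90). Ndufa8, also an accessory subunit, was at 169, 158 and 168 CPM against 73.1, 57.6 and 52.2 CPM. Cox5a was at 420, 307 and 296 CPM against 207, 171 and 126 CPM, and Cox6c at 553, 505 and 477 CPM against 372, 296 and 228 CPM. These 4 genes were higher in neutrophils under each total tried. By all UMIs complex I had 8, 11 and 12 members higher and 27, 24 and 23 lower. Complex IV had 5, 6 and 8 higher and 8, 7 and 5 lower. Subunits of the same complex thus stood on either side of the B level.

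Transcripts coded in mitochondrial DNA were set against the nuclear list in the same way. Over the whole list their summed ratio was 1.90, 2.13 and 2.09 in the chondrocyte-like cluster, close to the lowest cluster of each library (1.84, 2.08 and 2.05). Without Cox4i2 and Ndufa4l2 in the nuclear sum the chondrocyte-like ratio was 2.37, 2.55 and 2.49, and all clusters then ranged from 1.84 to 7.07 in sham, from 2.08 to 7.04 in UAC and from 2.05 to 6.13 in UAC + miR-330.

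Isoform genes gave the sharpest contrast between clusters. Of all Cox4i2 UMIs, 96.8%, 96.6% and 96.2% were in the chondrocyte-like cluster, and of Ndufa4l2 UMIs 97.0%, 97.0% and 97.1%. Cox4i2, the subunit 4 isoform of complex IV known from lung and low oxygen, was at 1776 CPM there in sham (95% interval 1748 to 1803), 1314 in UAC (1285 to 1344) and 1250 in UAC + miR-330 (1221 to 1278). Cox4i1 was at 540, 517 and 486 CPM in the same cluster, so Cox4i2 made 76.7% (76.1 to 77.3), 71.8% (70.9 to 72.6) and 72.0% (71.1 to 72.9) of the pair. Cox4i2 thus outnumbered Cox4i1 in this cluster in each library.

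Ndufa4l2, a relative of Ndufa4 known as a target of hypoxia-inducible factor 1, was at 2243, 1667 and 1486 CPM in the chondrocyte-like cluster. Ndufa4 was at 194, 182 and 162 CPM there, and Ndufa4l2 made 92.1%, 90.2% and 90.2% of that pair. In each library Ndufa4l2 had a higher level in this cluster than any other member. Outside it the balance was the reverse, and in B clusters Ndufa4 was at 308, 214 and 181 CPM and Ndufa4l2 at 8.77, 4.05 and 2.44 CPM.

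**Figure D3:**
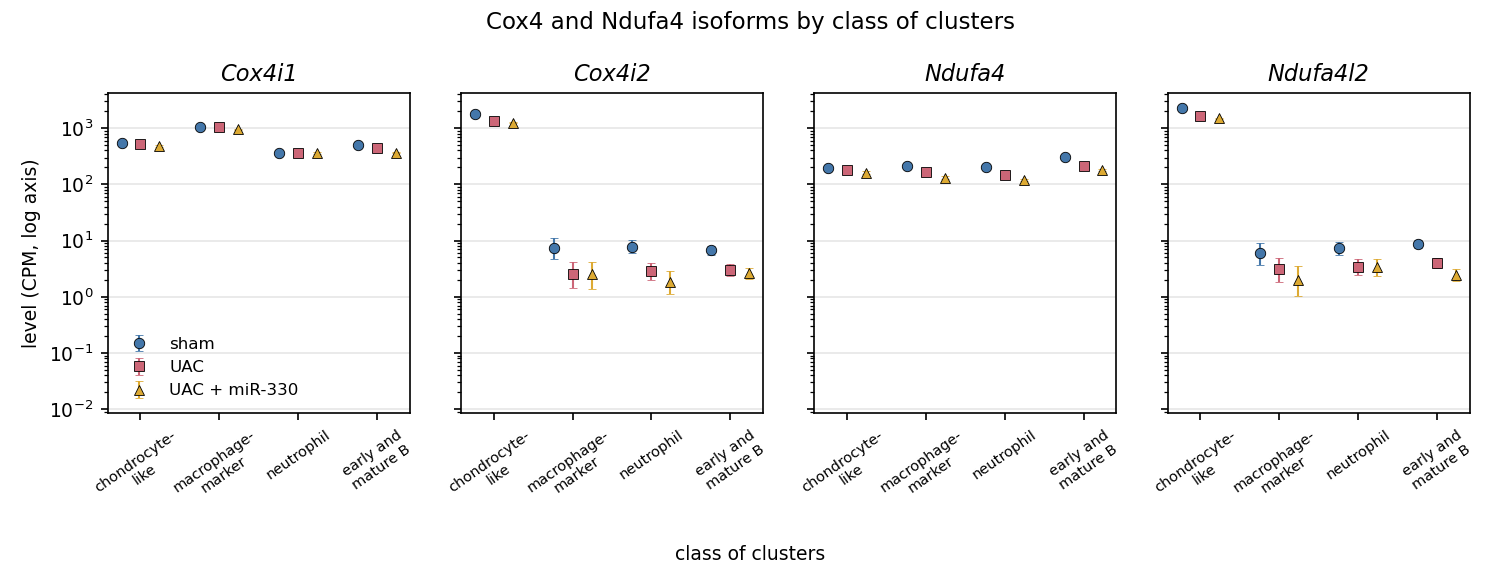
Level (CPM, log vertical axis) of Cox4i1, Cox4i2, Ndufa4 and Ndufa4l2 in 4 classes of clusters (horizontal axis), with a colour and shape per library and bars for exact 95% Poisson intervals, which cover counting error only. Cox4i2 was at 1776, 1314 and 1250 CPM in the chondrocyte-like cluster and at 7.82, 2.89 and 1.84 CPM in neutrophil clusters.

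The low counts elsewhere are set beside those of matrix genes. As a percent of the chondrocyte-like level, Cox4i2 was at 0.416, 0.194 and 0.201 in the macrophage-marker cluster and 0.440, 0.220 and 0.147 in neutrophils. Col2a1 was at 0.157, 0.0897 and 0.0871 in the macrophage-marker cluster and 0.127, 0.0850 and 0.121 in neutrophils. Acan, a cartilage proteoglycan that these blood cells lack, was at 0.433, 0.151 and 0.0771 in the macrophage-marker cluster and 0.227, 0.125 and 0.134 in neutrophils, and Sparc, a bone matrix gene, at 0.275, 0.154 and 0.132 and at 0.228, 0.161 and 0.149. Cox4i2 was above Col2a1 in each of these cases by value, above Acan in all but the sham macrophage-marker cluster, and above Sparc in all but the neutrophils of UAC + miR-330. Whether these counts are free RNA or expression was not tested. Of the 4 erythroid clusters 2 stood higher, 1 of sham with 69.7 CPM of Cox4i2 and 102 CPM of Ndufa4l2 and 1 of UAC + miR-330 with 24.7 and 21.9 CPM, and they also held 898 and 774 CPM of Col2a1 and 69.7 and 63.5 CPM of Acan. The other erythroid clusters, 1 of UAC and 1 of UAC + miR-330, had 2.98 and 1.89 CPM of Cox4i2 and 2.91 and 1.57 CPM of Ndufa4l2.

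Cox4i2 and Ndufa4l2 had the lowest log2 differences of the list between UAC and sham. Over the whole library Cox4i2 was at 213, 87.8 and 78.6 CPM and Ndufa4l2 at 269, 111 and 92.6 CPM, which gave −1.28 and −1.27 for UAC against sham. The chondrocyte-like share of UMIs itself differed by −0.85 in the same comparison. Within that cluster the differences were smaller, −0.43 (95% interval −0.47 to −0.40) for Cox4i2 and −0.43 (−0.46 to −0.39) for Ndufa4l2, and both stayed below 0 on the deposited scale (−0.24 and −0.23). Matrix genes were lower in the same cluster and comparison, with −0.49 for Col2a1, −0.37 for Sparc and −0.16 for Acan, of which Acan turned above 0 on the deposited scale. The summed chondrocyte markers gave −0.33, the summed fibroblast markers −0.26 and the summed osteogenic markers −0.03, the last 0.16 on the deposited scale, with Bglap at 9537 and 9876 CPM in sham and UAC. Neutrophil markers gave 1.81. A change of the isoform genes cannot be told apart from a change in what the cluster holds. Fewer cells of a kind, less RNA in each of them and a different capture of cells cannot be told apart in pooled libraries.

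Between UAC + miR-330 and UAC the chondrocyte-like cluster differed little in both genes. Cox4i2 gave −0.07 (−0.12 to −0.03) and Ndufa4l2 −0.17 (−0.21 to −0.12), and on the deposited scale both were above 0, at 0.16 and 0.07. Col2a1, Acan and Sparc gave 0.33, 0.41 and 0.07 there, above 0 on each scale. The Cox4i2 share of its pair does not depend on the scale, and its intervals for UAC and UAC + miR-330 overlapped while that of sham lay above both.

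The other tissue isoforms were rare. Cox6b2, known as the testis form of subunit 6b, was at 7.98, 19.4 and 11.9 CPM in the chondrocyte-like cluster, from 72, 116 and 70 UMIs. It was higher in UAC than in sham (1.28, 0.84 to 1.73) and lower in UAC + miR-330 than in UAC (−0.70, −1.15 to −0.27), on each scale. Its share of the pair with Cox6b1 was 2.02%, 5.43% and 3.63%, so Cox6b1, at 387, 338 and 316 CPM, remained the main form. B clusters had Cox6b2 at 7.40, 6.76 and 5.25 CPM, close to the chondrocyte-like level of sham. Cox7a1 and Cox6a2, the muscle forms, had 22, 10 and 7 UMIs and 10, 13 and 8 UMIs in the chondrocyte-like cluster, too few to compare.

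The c subunit genes of ATP synthase differed in level by class. In the chondrocyte-like cluster Atp5mc1 was at 269, 241 and 250.5 CPM and Atp5mc3 at 162, 143 and 132 CPM beside 570, 524 and 479 CPM of Atp5mc2. In B clusters Atp5mc1 was at 89.1, 73.1 and 60.9 CPM and Atp5mc3 at 114, 94.9 and 71.4 CPM. Atp5mc1 was thus above Atp5mc3 in the chondrocyte-like cluster and below it in B clusters, in each library.

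Group comparisons were made on members with 50 or more UMIs over the 2 libraries compared, with 0.5 UMI added to each count, and read against all genes that met the same limit. The deposited mean counts have the same sum for each cluster of a library, 4541 in sham, 5200 in UAC and 6123.5 in UAC + miR-330. On that scale every gene is 0.20 higher in log2 for UAC against sham and 0.24 higher for UAC + miR-330 against UAC, members and other genes alike. The gap between the median member and the median gene does not move with any of these scales and is given for each comparison. Counts of members above and below 0 have no share of all genes beside them. They describe the list, and the median over all genes is the value to set them against. The background share over all genes includes genes of few UMIs, whose counting error is wider than that of most members.

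A member was counted as past the limit when its log2 difference was beyond 0.32. Whole libraries were compared first, where the mix of cells also enters. For UAC against sham 74 of 75 members were lower and 1 was higher, against 54 lower and 21 higher on the deposited scale. Past the limit 16 of 75 were lower, against 15.1% of all genes, and 0 were higher, against 14.7%, and 14 of 73 were lower without Cox4i2 and Ndufa4l2. The lower count was 24 (16.8% of all genes) without haemoglobin, mitochondrial, ribosomal protein and immunoglobulin genes, 10 (13.6%) without the 50 most abundant genes and 3 (7.40%) on the deposited scale. The median member was at −0.26 and the median gene at −0.02, a gap of −0.24. All genes had quartiles of −0.21 and 0.17 in this comparison. Medians were −0.29 for complex I, −0.21 for complex III, −0.23 for complex IV and −0.26 for complex V, all still below 0 on the deposited scale. The only member above 0 was Atp5pb (0.11, −0.06 to 0.29).

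For UAC + miR-330 against UAC 64 of 73 members were lower and 9 higher by CPM, but 18 were lower and 55 higher on the deposited scale. Past the limit 6 of 73 were lower, against 10.6% of all genes, and 0 higher, against 30.9%. Under the same 3 scalings the lower count was 10 (12.0%), 16 (14.5%) and 1 (4.06%), and 5 were higher (54.9%) on the deposited scale. Members had a median of −0.17 and all genes a median of 0.13, a gap of −0.30. Medians of complexes I, III, IV and V were −0.13, −0.20, −0.21 and −0.17, and all 4 were above 0 on the deposited scale.

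Members are named here for the largest differences between UAC + miR-330 and UAC in the whole library among those whose level intervals did not overlap, which were Atp5md and Uqcrb on the lower side. Atp5md, a small subunit of the ATP synthase dimer interface, was at 104, 83.5 and 50.5 CPM (−0.73, −0.78 to −0.67). It was also lower in each class, on both scales: in B clusters at 74.1, 61.5 and 33.1 CPM (−0.89, −1.01 to −0.78), in the chondrocyte-like cluster at 124, 113 and 77.5 CPM (−0.55, −0.72 to −0.38), in the macrophage-marker cluster −0.52 (−0.74 to −0.30) and in neutrophils −0.48 (−0.71 to −0.25). Uqcrb, a complex III subunit that binds ubiquinone, was at 234, 202 and 151 CPM over the library (−0.43, −0.46 to −0.39) and at 166, 150 and 102 CPM in B clusters (−0.55, −0.62 to −0.48). Both genes were lowest in the UAC + miR-330 library.

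On the higher side the same rule gave Ndufs1 (0.25, 0.17 to 0.33) and Atp5f1c, the gamma subunit that turns inside the ATP synthase head, at 311, 286 and 318 CPM (0.15, 0.13 to 0.17). Atp5pb (0.19, 0.03 to 0.34) lay between them, but its level intervals overlapped (6.08 to 7.14 and 6.97 to 8.07 CPM). Ndufs1 and Atp5f1c stayed above 0 under each scale tried, and for UAC against sham they gave −0.04 and −0.12, which turned above 0 on the deposited scale. In the macrophage-marker cluster Ndufs1 was at 22.5, 15.3 and 25.4 CPM, lower in UAC than in each other library.

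**Figure D4:**
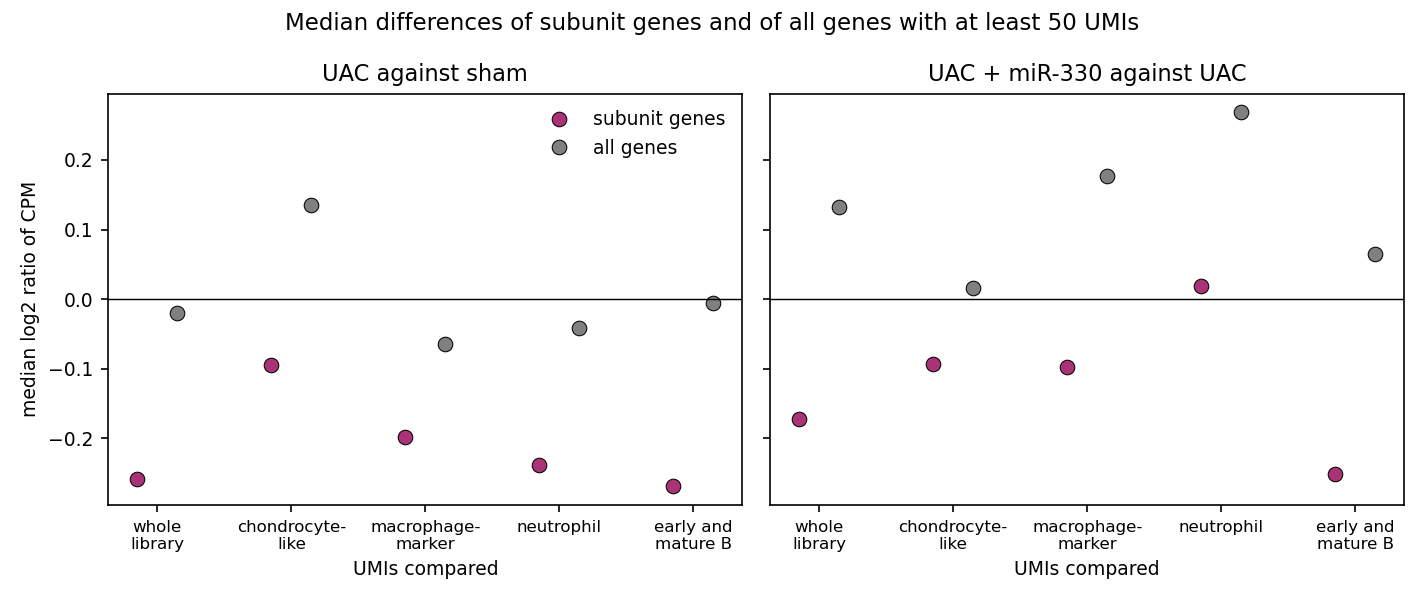
Median log2 ratio of CPM (vertical axis) of subunit genes and of all genes with at least 50 UMIs, for whole libraries and 4 classes of clusters (horizontal axis), UAC against sham on one panel and UAC + miR-330 against UAC on the other, with 1 point per median. Subunit medians lie below all-gene medians in each comparison, with a gap of −0.24 for whole UAC against sham; the deposited scale raises all points by 0.20 and 0.24, which brings several subunit medians above 0.

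The chondrocyte-like cluster was compared next, and its markers of blood and vessel cells differed between the libraries as given above. For UAC against sham 51 of 72 members were lower and 21 higher, against 10 lower and 62 higher on the deposited scale. Past the limit 2 of 72 were lower (5.86% of all genes) and 1 higher (27.9% of all genes), and the deposited scale gave 0 lower (2.09%) and 2 higher (51.0%). By CPM the lower genes were Cox4i2 and Ndufa4l2 and the higher gene was Cox6b2. With medians of −0.09 for members and 0.14 for all genes, the gap was −0.23. Medians were −0.09, −0.02, −0.06 and −0.14 for complexes I, III, IV and V, each above 0 on the deposited scale.

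UAC + miR-330 against UAC gave 58 lower and 14 higher of 72 members in the chondrocyte-like cluster, against 7 lower and 65 higher on the deposited scale. Past the limit 3 were lower, against 19.4% of all genes, and 0 higher, against 22%. Without the 50 genes 5 were lower (20.8%), and the deposited scale gave 1 lower (8.78%) and 4 higher (42.7%). The median member was at −0.09 and the median gene at 0.02, a gap of −0.11. Medians by complex were −0.07, −0.13, −0.09 and −0.07, above 0 on the deposited scale. Ndufs4, a complex I subunit near the NADH-binding module, was at 63.7, 59.2 and 73.2 CPM and was higher in UAC + miR-330 than in UAC (0.31, 0.10 to 0.51), while UAC against sham gave −0.11 (−0.30 to 0.09), an interval that held 0.

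In the macrophage-marker cluster 65 of 69 members were lower in UAC than in sham and 4 higher, against 36 lower and 33 higher on the deposited scale. Past the limit 11 were lower, against 22.9% of all genes, and 0 higher, against 12.1%, with 1 lower (11.7%) and 1 higher (27.0%) on the deposited scale. Cox4i2 and Ndufa4l2 had too few UMIs to enter in this cluster. Members had a median of −0.20 and all genes a median of −0.06, a gap of −0.13. The complex I median (−0.24) stayed below 0 on the deposited scale, while those of complexes III, IV and V (−0.14, −0.12 and −0.19) did not.

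UAC + miR-330 against UAC gave 49 lower and 20 higher members of 69 in that cluster, against 12 lower and 57 higher on the deposited scale. Past the limit 4 were lower, against 8.86% of all genes, and 1 higher, against 35.5%, the latter being Ndufs1 (0.72, 0.34 to 1.12). Without the 50 genes 8 were lower (10.5%), and the deposited scale gave 0 lower (3.44%) and 9 higher (59.5%). With medians of −0.10 for members and 0.18 for all genes, the gap was −0.27. Medians by complex were −0.04, −0.19, −0.13 and −0.14, each above 0 on the deposited scale.

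The neutrophil class held early granulocyte transcripts in different shares. Early granulocyte markers in it summed to 16802, 1156 and 3950 CPM, most of it RatNP-3b (16484, 945 and 3722 CPM). In UAC an unnamed cluster (79230 CPM of these markers, 3.56% of UMIs) and in UAC + miR-330 the early granulocyte cluster (84535 CPM, 3.58%) stood outside the class, while sham had no cluster outside the class that was led by granulocyte markers.

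Neutrophil clusters had 64 of 71 members lower in UAC than in sham and 7 higher, against 40 lower and 31 higher on the deposited scale. Past the limit 25 were lower, against 23.6% of all genes, and 0 higher, against 11.1%, while 9 were lower (13.2%) and 2 higher (28.9%) on the deposited scale. The 25 include Cox4i2 (−1.43) and Ndufa4l2 (−1.09), whose low counts here cannot be told apart from free RNA, and 23 of the 69 others were lower past the limit. The median member was at −0.24 and the median gene at −0.04, a gap of −0.20. With the 2 outside clusters added, an alternative chosen after seeing the data, 44 of 71 were lower and 27 higher by CPM, against 10 lower and 61 higher on the deposited scale. Then 4 were lower past the limit (2 without Cox4i2 and Ndufa4l2), against 10.8% of all genes, and 0 higher, against 12.4%. The median member was at −0.04 (0.16 on the deposited scale), with a gap of −0.05 to the median gene. Without the added clusters, medians of complexes I and V (−0.29 and −0.27) stayed below 0 on the deposited scale, and those of complexes III and IV (−0.16 and −0.14) turned above it. Ndufa11, an accessory subunit of the complex I membrane arm, was at 42.0, 17.0 and 24.5 CPM, lower in UAC than in sham (−1.31) and higher in UAC + miR-330 than in UAC (0.53) on each scale. It was at 95.8 and 120.0 CPM in the 2 outside clusters, and with them the differences were −0.28 and 0.49, with the same signs on each scale. The part of early granulocyte transcripts in the other values of the class was not tested.

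Neutrophils of UAC + miR-330 against UAC were the only case of the 10 in which more members were higher (39) than lower (33) by CPM. The lower quartile of all genes was itself at 0.00534 there, so members were higher less often than genes at large. Without the 50 most abundant genes, which moved every gene there by −0.14, 49 were lower and 23 higher, and on the deposited scale 3 were lower and 69 higher. Past the limit 2 of 72 were lower, against 6.88% of all genes, and 6 higher, against 45.1%. These were 7 lower (12.6%) and 3 higher (32.1%) without the 50 genes, and 1 lower (2.69%) and 28 higher (68.0%) on the deposited scale. By CPM the 2 lower genes were Atp5md and Cox4i2 (−0.64, from 33 and 19 UMIs), so 1 was lower without Cox4i2 and Ndufa4l2. Members had a median of 0.02 and all genes a median of 0.27, a gap of −0.25, and the summed members gave −0.02 by CPM, of opposite sign to the median. With the 2 outside clusters added 12 were lower and 60 higher by CPM, and 41 lower and 31 higher without the 50 genes. Then 2 were lower past the limit (1 without these isoform genes), against 4.80% of all genes, and 13 higher, against 51.0%. The median member was at 0.14 (−0.03 without the 50 genes), with a gap of −0.19. Medians by complex in the neutrophil class were 0.09, −0.05, −0.04 and 0.03, all above 0 on the deposited scale and all below 0 without the 50 genes.

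B clusters had all 73 members lower in UAC than in sham by CPM, against 52 lower and 21 higher on the deposited scale. Past the limit 22 were lower, against 12.3% of all genes, and 0 higher, against 11.6%. Without Cox4i2 (−1.15) and Ndufa4l2 (−1.11) 20 of 71 were lower past the limit, and with all members 5 were lower (4.79%) and 0 higher (29.9%) on the deposited scale. Whether the low counts of these isoform genes in B clusters are free RNA or expression was not tested. In the same clusters of sham and UAC Col2a1 was at 54.2 and 25.1 CPM, Acan at 5.045 and 2.44 CPM and Sparc at 114 and 54.9 CPM. With medians of −0.27 for members and −0.01 for all genes, the gap was −0.26. The quartiles of all genes were −0.18 and 0.16. Medians of complexes I, IV and V (−0.29, −0.25 and −0.25) stayed below 0 on the deposited scale and that of complex III (−0.17) did not.

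For UAC + miR-330 against UAC the B clusters had 65 of 73 members lower and 8 higher, against 41 lower and 32 higher on the deposited scale. Past the limit 27 were lower, against 15.7% of all genes, and 0 higher, against 24.7%, and 26 of 71 were lower without these 2 isoform genes. With all members the deposited scale gave 3 lower (5.86%) and 4 higher (47.8%). The median member was at −0.25 and the median gene at 0.07, a gap of −0.32. A low median was not particular to the subunit list. Cytosolic ribosomal proteins gave −0.36, with 43 of 78 genes lower and 2 higher past the limit. Glycolysis genes gave −0.26, with 8 of 16 lower and 2 higher. TCA cycle genes gave −0.01 and regulators of mitochondrial biogenesis 0.17. Medians of complexes III, IV and V (−0.32, −0.34 and −0.26) stayed below 0 on the deposited scale, and that of complex I (−0.17) turned above it. Early and mature B clusters do not hold the same stages in the same shares in each library, and their part was not tested.

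Related genes are given for context as whole-library medians by CPM, UAC against sham and then UAC + miR-330 against UAC, where the deposited scale adds 0.20 and 0.24. Complex II, which oxidises succinate and lies outside the name patterns, gave −0.19 and −0.08 over 4 genes, with Sdhb at 106, 92.6 and 86.1 CPM and Sdhd at 102, 89.6 and 76.2 CPM. Ndufab1, the acyl carrier protein of complex I, was at 155, 123 and 112 CPM and Cyc1, the cytochrome c1 of complex III, at 111, 88.0 and 75.3 CPM, with a median of −0.34 and −0.18 over the pair. The 13 subunits coded in mitochondrial DNA gave −0.05 and 0.08, with Mt-co3 at 8509, 8670 and 7932 CPM and Mt-co2 at 9175, 8568 and 6452 CPM. Their summed levels were 46720, 44505 and 37634 CPM, so for UAC + miR-330 against UAC the sum gave −0.24, of opposite sign to the median, with 6 genes lower and 7 higher by CPM, and −0.00609 on the deposited scale. Their medians were closer to the all-gene medians than those of the nuclear members in UAC against sham.

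Assembly factors, which build the complexes, gave −0.09 and 0.06 over 42 genes, with the copper chaperone Cox17 at 161, 157 and 130 CPM and Sdhaf1, an assembly factor of complex II, at 134, 130 and 98.4 CPM. Here too the sum for UAC + miR-330 against UAC was below 0 by CPM (−0.04) while the median was above it. Regulators of mitochondrial biogenesis gave 0.04 and 0.14 over 18 genes, with the transcription factors Yy1 at 155, 169 and 206 CPM and Creb1 at 106, 114 and 168 CPM. These 2 regulators were highest in the UAC + miR-330 library.

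TCA cycle genes gave −0.09 and 0.04 over 14 genes, with malate dehydrogenase Mdh2 at 139, 116 and 95.6 CPM and Pdha1, which feeds the cycle from pyruvate, at 97.6, 103 and 113 CPM. Glycolysis gave −0.08 and −0.25 over 18 genes, with Gapdh at 714, 566 and 453 CPM and Ldha, which makes lactate, at 617, 546 and 429 CPM. Uncoupling and oxidant defence gave −0.18 and −0.20 over 8 genes, with Gpx1 at 667, 576 and 616 CPM and the uncoupling protein Ucp2 at 494, 415 and 303 CPM. Cytosolic ribosomal proteins gave −0.15 and −0.23 over 79 genes, with Rpl41 at 5187, 4572 and 3489 CPM and Rpl27a at 3805, 3460 and 2796 CPM.

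Within the chondrocyte-like cluster the same lists gave 0.04 and −0.17 for complex II, −0.13 and −0.17 for Ndufab1 with Cyc1, 0.03 and 0.11 for mitochondrial DNA and −0.08 and 0.07 for assembly factors. Biogenesis regulators gave 0.10 and 0.03, TCA cycle genes 0.01 and −0.02, and glycolysis −0.16 and −0.14. Uncoupling and oxidant defence gave 0.11 and −0.36, and ribosomal proteins −0.01 and −0.15. Sums had the opposite sign to the medians for mitochondrial DNA in both comparisons (−0.00201 and −0.12) and for biogenesis regulators in UAC + miR-330 against UAC (−0.02), by CPM. Gapdh was at 1613, 1328 and 1203 CPM in this cluster, above its whole-library level in each library.

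Promoter sequences from RefSeq (build GRCr8) were read for motifs of factors known to act on such genes. Of the 79 members 67 were matched by name, and the 250 bases before the gene start were searched on both strands, beside 33469 promoters of the same length. The core CGCATGCG, bound by NRF1, a factor of mitochondrial gene control, was in 7 members (10.4%) and in 1.47% of all promoters. The core CCGGAAG of ETS factors, which include GABP, was in 17 members (25.4%) against 7.27%. AAGATGGC of YY1 was in 2 members (2.99%) against 1.63%, and ACGTG or GCGTG, the core of hypoxia response elements, was in 36 members (53.7%) against 36.7%. A match describes letters and not a bound site. The background took every promoter, without a limit to genes counted here or a match for base content. The higher shares are therefore not read as particular to the list. Whether these motifs bear on any difference between groups or clusters was not tested. Cox4i2 was among the 12 members without an entry.

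The promoters of Cox4i1, Ndufa4 and Ndufa4l2 are shown because these genes made the isoform contrast between clusters. They lie at chr19:65630133-65630382 on the plus strand, chr4:40975560-40975809 on the minus strand and chr7:65241919-65242168 on the plus strand, and are written 5′ to 3′ along the gene, with each ACGTG or GCGTG, or its reverse complement, in capitals. Cox4i1 had 2 such matches, Ndufa4 had 1 and Ndufa4l2 had 0 in this window, and none of the 3 held the NRF1, ETS or YY1 letters.
Cox4i1: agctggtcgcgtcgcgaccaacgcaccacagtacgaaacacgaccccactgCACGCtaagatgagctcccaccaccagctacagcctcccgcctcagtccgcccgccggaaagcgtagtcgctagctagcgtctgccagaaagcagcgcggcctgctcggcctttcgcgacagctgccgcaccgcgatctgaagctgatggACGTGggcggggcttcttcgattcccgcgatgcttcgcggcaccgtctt
Ndufa4: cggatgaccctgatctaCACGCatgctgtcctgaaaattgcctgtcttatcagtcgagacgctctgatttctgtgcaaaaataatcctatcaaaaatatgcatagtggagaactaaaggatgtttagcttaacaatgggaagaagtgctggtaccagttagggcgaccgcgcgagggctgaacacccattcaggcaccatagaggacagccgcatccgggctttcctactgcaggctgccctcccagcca
Ndufa4l2: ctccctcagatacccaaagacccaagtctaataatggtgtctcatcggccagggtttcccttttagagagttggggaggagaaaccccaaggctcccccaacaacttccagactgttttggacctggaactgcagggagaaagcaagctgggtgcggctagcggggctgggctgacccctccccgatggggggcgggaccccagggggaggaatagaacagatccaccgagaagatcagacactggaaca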

How the data were processed

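Single-cell 3′ libraries of 3 pooled groups were used, with 1 table of clusters per library. The values deposited by the authors are a signal, mean counts per gene that share 1 divisor within each cluster. Dividing each mean by the smallest mean above 0 of its column gave whole UMIs for 100% of values (tolerance 1e-06). The deposited log2 fold changes and the deposited adjusted p-values hold the authors' comparisons of each cluster with the other clusters of its library, and were not used. The submitters' processing notes name Cell Ranger 7.0, STAR and Seurat 4.0.1. They also name human and mouse genome builds, and the rat build is not given in the sources used here. The tables hold clusters and not cells, so no doublets could be called, and how the authors treated doublets is not given in the sources used here.

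CPM, exact 95% intervals, medians and log2 ratios (0.5 UMI added, genes with 50 or more UMIs over the 2 libraries compared) were computed with python 3.11.15, numpy 2.4.6, pandas 2.3.3, scipy 1.17.1 and matplotlib 3.10.9, in steps tested on simulated data. Rows that shared a name were summed. Each cluster was named for the cell type with the largest number of enriched markers (log2 of at least 1 against the rest, at least 50 CPM, at least 3 markers, a lead of at least 2, and top 10 genes not against it). Clusters without a class that had at least 5 B markers at 50 CPM and 4 times the mean of the 3 lowest clusters were called B lineage and kept out of the B comparison.

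Members and lists were chosen with earlier results of these data known. Named genes were the 3 of each complex with the most UMIs, the isoform pairs, the c subunit genes, the 2 members with the largest differences each way among those whose level intervals did not overlap, and the 2 most abundant genes of each context list. The naming rule, the complex V to IV ratio, the neutrophil to B comparison, the counting error set for medians, the single mural and endothelial genes, the extremes quoted in it, genes quoted beyond this rule for their level or class, the ratios with and without Cox4i2, Ndufa4 or Ndufa4l2, counts without Cox4i2 and Ndufa4l2, the granulocyte clusters added to the neutrophil class and the promoter motifs were chosen after the tables were seen. Names of ribosomal kinases and of 1 binding protein were taken out of the ribosomal list, and 2 names that are no such genes out of the 130 left out of totals. Other totals, limits, added counts, folds, class weights and gene lists were tried.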

Additional observations from a re-analysis of the deposited data

How the results depend on the processing

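Medians of members were computed again under other settings, and the cause of a difference was not tested. With at least 1 UMI, with 5 UMIs added or without non-subunits and tissue isoforms, 10 of 10 medians moved by less than counting error, and with at least 500 UMIs 9 of 10 did, the exception being neutrophils for UAC against sham (−0.21). On the deposited scale the medians were −0.0636 and 0.0636 for the whole library, 0.10 and 0.14 for the chondrocyte-like cluster, −0.00303 and 0.14 for the macrophage-marker cluster, −0.0434 and 0.25 for neutrophils and −0.0735 and −0.0161 for B clusters, UAC against sham first. In this setting the medians of UAC + miR-330 against UAC in the whole library and the macrophage-marker cluster, both medians of the chondrocyte-like cluster, and Cox4i2 and Ndufa4l2 for UAC + miR-330 against UAC in that cluster (0.16 and 0.0702) changed sign. Leaving haemoglobin, mitochondrial, ribosomal protein and immunoglobulin genes out of the totals gave −0.28 and −0.20 for the whole library, −0.11 for the chondrocyte-like and −0.13 for the macrophage-marker cluster (UAC + miR-330 against UAC), −0.29 and −0.30 for B clusters, and a chondrocyte-like to neutrophil level of 2.93, 3.19 and 2.79. Without the 50 most abundant genes the medians were −0.23 and −0.25 for the whole library, −0.12 and −0.12 for the chondrocyte-like cluster, −0.13 for the macrophage-marker cluster (UAC + miR-330 against UAC), −0.27 and −0.12 for neutrophils and −0.28 and −0.30 for B clusters, and the level ratio was 1.73, 1.88 and 1.81. Among members with at least 50 UMIs in each library the sham level ratio was 2.30. Weighting the classes as in sham gave −0.23 and −0.16 for the whole library. Adding the B lineage clusters, chosen after seeing the data, gave −0.30 and −0.27 for B clusters, and adding the other clusters led by granulocyte markers, chosen likewise, gave −0.0402 and 0.14 for neutrophils, with 4 rather than 25 members lower past the limit for UAC against sham and 13 rather than 6 higher for UAC + miR-330 against UAC. Without non-subunits and tissue isoforms, also added later, the complex V to IV ratio of neutrophils over B clusters was 0.550, 0.527 and 0.521.

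Counts past the limit depended on it. Without Cox4i2 and Ndufa4l2, chosen after seeing the data, lower members went from 2 to 0 in the chondrocyte-like cluster for UAC against sham and from 2 to 1 in neutrophils for UAC + miR-330 against UAC. The share of all genes under the same setting is in brackets, and UAC against sham comes first. From a log2 of 0.32 to 0.58 lower members went from 16 to 3 (6.05%) and 6 to 1 (3.67%) in the whole library, 2 to 0 (1.61%) and 3 to 1 (8.01%) in the chondrocyte-like cluster, 11 to 0 (9.62%) and 4 to 0 (3.20%) in the macrophage-marker cluster, 25 to 7 (11.2%) and 2 to 1 (2.40%) in neutrophils and 22 to 3 (3.71%) and 27 to 2 (5.35%) in B clusters, and higher members of neutrophils went from 6 to 1 (22.2%) for UAC + miR-330 against UAC. Without the 50 most abundant genes 10 (13.6%) and 16 (14.5%) were lower in the whole library. For UAC + miR-330 against UAC, 5 (20.8%) were then lower in the chondrocyte-like and 8 (10.5%) in the macrophage-marker cluster, and 7 (12.6%) were lower and 3 (32.1%) higher in neutrophils. Without haemoglobin, mitochondrial, ribosomal protein and immunoglobulin genes 24 (16.8%) and 10 (12.0%) were lower in the whole library, and 5 (20.7%) in the chondrocyte-like and 8 (10.4%) in the macrophage-marker cluster for UAC + miR-330 against UAC. On the deposited scale lower and higher members were 3 (7.40%) and 0 (29.6%) then 1 (4.06%) and 5 (54.9%) in the whole library, 0 (2.09%) and 2 (51.0%) then 1 (8.78%) and 4 (42.7%) in the chondrocyte-like cluster, 1 (11.7%) and 1 (27.0%) then 0 (3.44%) and 9 (59.5%) in the macrophage-marker cluster, 9 (13.2%) and 2 (28.9%) then 1 (2.69%) and 28 (68.0%) in neutrophils and 5 (4.79%) and 0 (29.9%) then 3 (5.86%) and 4 (47.8%) in B clusters.

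No paired analysis was possible because each group had 1 library. With 1 pool per group the spread between rats is unknown, and no difference between groups has a replicate check. Scarce isoforms, with few UMIs, are limited by counting, and the smallest cluster held 1352666 UMIs.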
